A study of Rattus norvegicus with 10 samples.

Results

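The cell cycle and DNA replication genes are a list of 36 genes that carry a liver cell from rest through DNA copying to division, or hold it back. They were taken as the probe sets that the platform annotation ties to exactly 1 gene symbol, with 1 probe set per gene, the brightest on average. In all, 35 of the 36 genes had such a probe set, among 14217 genes on the array that did. Rrm2, which encodes the small subunit of ribonucleotide reductase, was left out because its probe sets also carry the symbol Rrm2l1.

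The mulberry group was 5 Wistar/ST rats on a high-fat diet given dried mulberry leaf powder at 500 mg per kg of body weight a day, and the control group was 5 rats of the same stock and diet at a dose of 0 mg per kg. Per the labels, both doses were given in carboxymethylcellulose by gastric probe after an overnight fast, and livers were taken after 7 weeks. There was 1 Affymetrix rat array per liver, so each value stands for 1 animal and for whole tissue. The age and sex of the rats are not given in the sources used here, and both groups ate the high-fat diet, so no rat on a standard diet enters any comparison.

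In adult liver nearly all hepatocytes rest outside the cycle and can re-enter it after injury or loss of tissue. Cyclin D with Cdk4, and then cyclin E with Cdk2, inactivate the retinoblastoma protein and release E2F factors, which switch on the genes that load and fire replication origins. Cyclin A and cyclin B with Cdk1 then drive the cell through G2 and mitosis, while inhibitors such as p21 and p27 and the p53 pathway apply the brakes.

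Median intensity per array lay between 97.5 and 118, and arrays correlated with each other at r of 0.953 to 0.982 over the tested probe sets. The liver label was borne out by albumin (Alb), at 28366 to 40663 in mulberry rats and 26590 to 40742 in control rats. The summed intensity of the hepatocyte list (9 of 10 markers with a probe set) spanned 216272 to 264855 in mulberry rats and 217056 to 257179 in control rats. The summed lymphocyte list (13 of 15 markers) spanned 2490 to 3813 in mulberry rats and 2551 to 3390 in control rats, with Ptprc at 387 to 476 and 196 to 560 in those groups. The macrophage list (11 of 13 markers) spanned 12825 to 30472 in mulberry rats and 20410 to 28164 in control rats, with Cd68 at 553 to 1159 and 608 to 785. Mulberry rats 1, 2, 4 and 5 read above every control rat for Cd68, and mulberry rat 3 below every one. With differences from -0.96 to 0.39 on the log2 scale, 7 of the 10 macrophage markers tested were higher and 3 lower with mulberry. Unadjusted limma p was under 0.05 in 2 of them, against 1.74% of all tested probe sets, and 0 passed after adjustment. Endothelial (11 of 12), stellate cell (10 of 10) and bile duct (5 of 7) sums also overlapped between the groups, with Pecam1 at 241 to 259 in mulberry rats and 218 to 262 in control rats, Des at 72.3 to 100.2 and 53.9 to 122, and Krt19 at 41.6 to 121 and 62.7 to 129. No defining marker was at 0, and the part of these cells in the values below was not tested. In whole tissue, fewer cells of a type and less RNA per cell cannot be told apart.

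None of the 26 cell cycle genes that could be tested passed the limma threshold between mulberry and control rats. The p was Benjamini-Hochberg adjusted over the 18625 tested probe sets, of which 0% passed. So no gene could be called, which does not show that no gene changed. Without adjustment 1 of the 26, Fen1, had a limma p under 0.05, where 1.74% of all tested probe sets did (1.07% higher and 0.671% lower in the mulberry group). Fen1 was lower. In 0 of the 35 genes did the groups fail to overlap, against 0.477% of all probe sets. Among the 35 genes, 14 had a higher and 21 a lower mean in the mulberry group. That is 60% lower, where 47.2% of all probe sets were lower. The median difference, mulberry minus control, was -0.04 on the log2 scale over the 35 genes and 0.01 over all probe sets. Single differences ran from -0.62 to 0.58. Differences are of log2(intensity + 16), which understates the change of dim genes.

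Of the 35 probe sets, 26 (74.3%) had a mean above the filter, an intensity of 61.1 on that scale, which 60% of all probe sets passed. The 60% is set by the cut at the 40th percentile and covers every probe set. The 35 are the brightest probe set of each gene, which favours passing, so the shares are not like for like. The 9 under it were the mitotic genes Mki67, Top2a, Ccna2, Cdk1, Aurka, Aurkb, Bub1 and Plk1, and the transcription factor gene E2f1. All 6 helicase genes and all 5 measured DNA synthesis genes passed. Intensities of different probe sets do not rank RNA amounts, since each probe set binds with its own strength, so only values of 1 probe set are compared across rats.

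**Figure D1:**
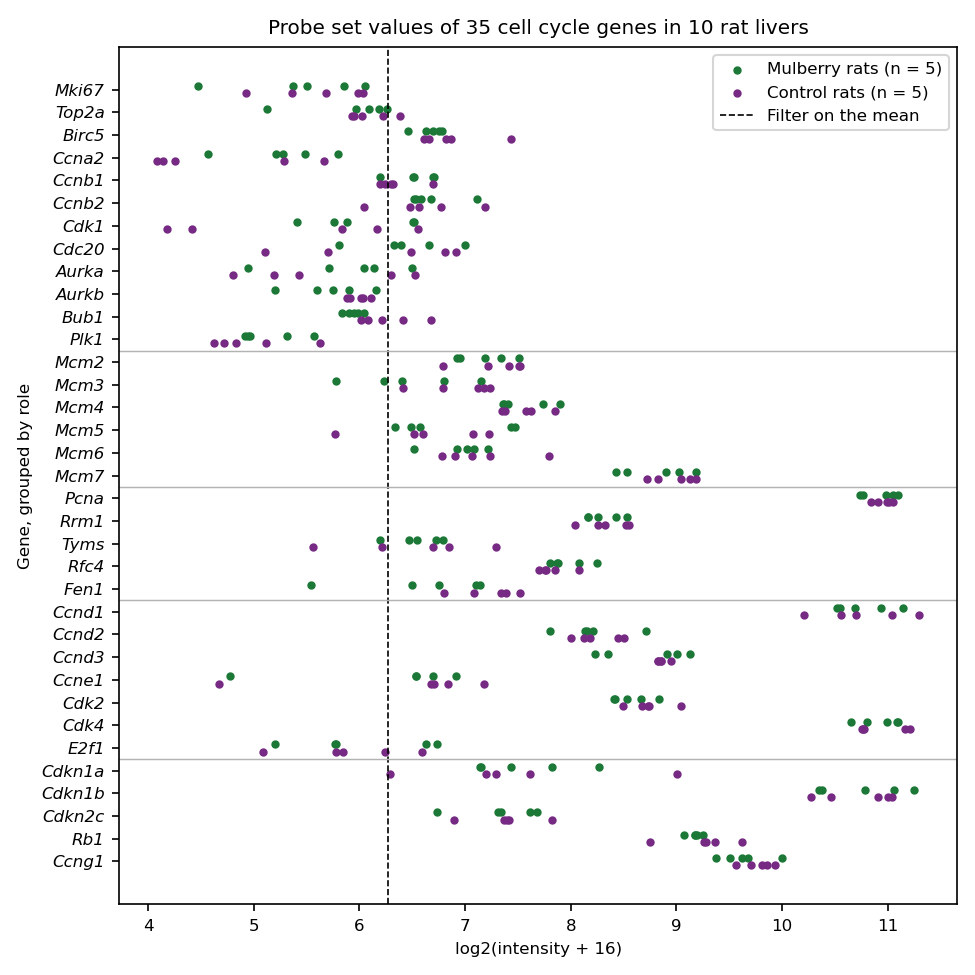
Values of the 35 cell cycle genes on the log2(intensity + 16) scale (x axis) by gene (y axis, grouped by role, with grey lines between roles), with 1 point per rat, mulberry in green above control in purple (n = 5 each). The dashed line is the filter on the mean, and 8 of the 9 genes whose mean lies under it are in the mitosis group at the top.

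The mitotic genes were where dim values were most common, with 8 of 12 under the filter. Mki67 encodes Ki-67, which coats mitotic chromosomes and marks cycling cells, and its probe set read 6.15, 50.3, 29.5, 41.7 and 25.3 in mulberry rats 1 to 5, against 47.3, 49.6, 25.2, 14.5 and 35.2 in control rats 1 to 5. Mulberry rat 1 was the lowest of all 10 rats and the other mulberry rats lay within the control range or just above it. The means were 30.6 ± 16.9 in mulberry rats and 34.4 ± 14.8 in control rats (SD, n = 5 each), a difference of -0.15 on the log2 scale that was 0.10 without mulberry rat 1. Top2a, the topoisomerase that untangles sister chromatids, read 46.4, 52.3, 18.9, 60.7 and 56.8 in mulberry rats 1 to 5, against 48.9, 67.4, 44.8, 58.6 and 45.7 in control rats 1 to 5. Mulberry rat 3 was the lowest rat, and the groups otherwise overlapped, with means of 47.0 ± 16.6 in mulberry rats and 53.1 ± 9.70 in control rats. Its difference was -0.17, and 0.03 without mulberry rat 3.

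Cdk1, the kinase that starts mitosis, read 75.6, 74.9, 38.3, 42.9 and 26.6 in mulberry rats 1 to 5, against 77.7, 2.15, 41.0, 55.9 and 5.39 in control rats 1 to 5. Control rats 2 and 5 were the lowest, and the groups overlapped. Its means were 51.6 ± 22.3 in mulberry rats and 36.4 ± 32.6 in control rats, and its difference was 0.58. Fitted without a filter it had an SE of 0.45 and an unadjusted limma p of 0.216. The difference was 0.27 without control rat 2, and with pseudocounts of 1 and 64 it was 1.24 and 0.25. Ccna2, cyclin A2, the partner that drives S phase and entry into mitosis, also differed by 0.58, with 39.6, 22.8, 21.0, 7.73 and 28.6 in mulberry rats 1 to 5, against 23.0, 34.6, 1, 1.59 and 3.02 in control rats 1 to 5. Control rats 3, 4 and 5 read lower than every mulberry rat, control rat 3 at the lowest value the table holds, and the unadjusted limma p without a filter was 0.112. At such low readings the pseudocount sets the size, and the difference was 1.66 with a pseudocount of 1 and 0.21 with 64.

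Bub1, a spindle checkpoint kinase that delays chromosome separation, came nearest to a clean split. It read 45.8, 49.8, 43.9, 41.2 and 47.3 in mulberry rats 1 to 5, against 86.4, 58.2, 51.9, 48.9 and 68.9 in control rats 1 to 5. The mulberry values were narrow and 4 of the 5 lay below every control rat, while mulberry rat 2 lay just above control rat 4. The means were 45.6 ± 3.28 in mulberry rats and 62.8 ± 15.2 in control rats, with a difference of -0.34 (SE 0.20) and an unadjusted limma p of 0.117 in the fit without a filter. The two-sided exact permutation p was 0.0159, unadjusted, and Bub1 was the 1 gene of the 35 with such a p under 0.05, where 3.01% of all probe sets had one.

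The 4 mitotic genes above the filter showed no common direction, with 3 higher and 1 lower. Birc5 encodes survivin, a subunit of the chromosomal passenger complex, and read 83.1, 91.9, 87.9, 72.0 and 94.2 in mulberry rats 1 to 5, against 96.8, 101, 157, 81.6 and 85.2 in control rats 1 to 5. Control rat 3 stood above the rest and the other 9 rats lay between 72.0 and 100.8. Its difference was -0.21 (SE 0.19, 95% interval -0.62 to 0.19), with an unadjusted limma p of 0.274, and without control rat 3 it was -0.07. Ccnb1 and Ccnb2, the B cyclins that activate Cdk1, differed by 0.18 (SE 0.19) and 0.07 (SE 0.22). Cdc20, the activator that turns the anaphase-promoting complex on B cyclins, differed by 0.23 (SE 0.35, 95% interval -0.53 to 0.999). Without control rat 3 that was -0.04, and over all 5 of its probe sets it was -0.06.

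Among the remaining mitotic kinases, Aurka, which matures spindle poles, differed by 0.22, or by 0.0047 without control rat 3 and 0.45 without mulberry rat 3. Aurkb, the kinase of the passenger complex, differed by -0.27. Plk1, which acts at centrosomes and kinetochores, differed by 0.16. All were under the filter, and their control and mulberry ranges overlapped.

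**Figure D2:**
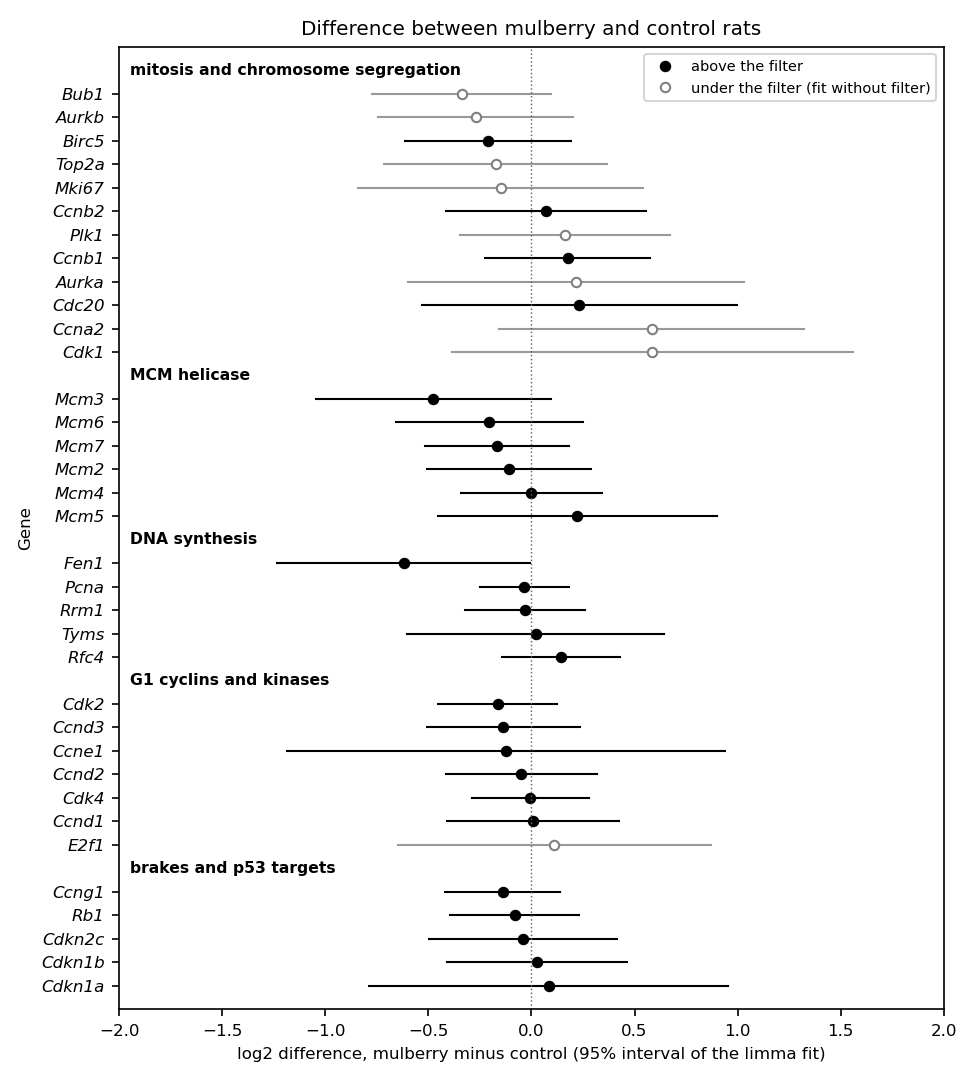
Difference, mulberry minus control, on the log2 scale (x axis) for each of the 35 genes (y axis, grouped by role), with limma's 95% interval as a bar. Filled points are the 26 genes above the filter, open points the 9 under it from the fit without a filter, and all intervals except that of Fen1 cross 0.

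The MCM genes encode the 6 subunits of the ring-shaped helicase that is loaded on replication origins and unwinds the DNA. All 6 were above the filter, with 5 lower and 1 higher in the mulberry group and a median difference of -0.14 (log2). The 5 lower include Mcm4, at -0.00015, and the intervals of all 6 crossed 0. Mcm3 had the largest difference of the 6, with 68.7, 126, 59.2, 38.8 and 95.4 in mulberry rats 1 to 5, against 124, 94.6, 129, 69.0 and 134 in control rats 1 to 5. Mulberry rat 4 was the lowest rat and mulberry rat 2 lay among the highest control rats. The means were 77.6 ± 33.9 in mulberry rats and 110.2 ± 27.7 in control rats, a difference of -0.48 (SE 0.26, 95% interval -1.05 to 0.09) with an unadjusted limma p of 0.0947. Leaving out single rats moved it between -0.65 and -0.30.

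Mcm6 read 105, 119.8, 75.8, 113 and 133 in mulberry rats 1 to 5, against 94.1, 205, 118, 104 and 135 in control rats 1 to 5. Control rat 2 was the highest and mulberry rat 3 the lowest, with the remaining 8 rats between 94.1 and 135. Its difference of -0.20 (SE 0.21) was -0.05 without control rat 2. Mcm7 read 327, 463, 355, 504 and 566 in mulberry rats 1 to 5, against 567, 512, 545, 405 and 437 in control rats 1 to 5, and its groups overlapped across most of their range, with a difference of -0.17 (SE 0.16, unadjusted limma p of 0.323). Mcm2 differed by -0.11 (SE 0.18).

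Mcm4 was nearly level and Mcm5 higher, unlike the other 4. Mcm4 averaged 174 ± 33.8 in mulberry rats and 174 ± 27.7 in control rats, a difference of -0.00015 with a 95% interval of -0.34 to 0.34. Mcm5 averaged 107 ± 47.7 in mulberry rats and 89.6 ± 37.7 in control rats, a difference of 0.22 (SE 0.31) that was 0.01 without control rat 3, which read 38.6.

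Motifs of cell cycle promoters were counted as a description of the sequence, with no test. RefSeq promoter windows of the GRCr8 build, 250 bases before to 50 after the start, were matched for 29 of the 35 genes, and each was searched on both strands. The first motif is the E2F site, as TTTCCCGC, TTTCGCGC, TTTGCCGC or TTTGGCGC. The second is the cell cycle homology region CHR, as TTTGAA, bound by repressor and activator complexes of G2 and mitosis genes. The third is CCAAT. An E2F match was in 2.25% of all 27457 windows, in 8 of 29 windows of the list (27.6%) and in 5 of 5 windows of MCM genes, Mcm4 having no entry. A CHR match was in 18.1% of all windows, in 8 of 29 of the list (27.6%), in 7 of 10 mitotic genes and in 1 of 5 MCM genes. CCAAT was in 37.7% of all windows in 18 of 29 (62.1%) of the list, in 8 of 10 mitotic genes and in 4 of 5 MCM genes. The list's windows were richer in G and C, with a median of 59.7% against 52.3% over all windows, and a match is a description of letters, not a bound site.

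The windows of Mcm5, Mcm2 and Mcm3 are shown because these helicase genes carry E2F matches, in capitals, and Mcm3 has the lowest difference and Mcm5 the highest of the 6. Matches on the 2 strands overlap in the first capital run of Mcm5 and in that of Mcm2. Mcm5 lies on the plus strand at chr19:13488563-13488862, Mcm2 on the minus strand at chr4:122918045-122918344 and Mcm3 on the minus strand at chr9:30733697-30733996.
Mcm5: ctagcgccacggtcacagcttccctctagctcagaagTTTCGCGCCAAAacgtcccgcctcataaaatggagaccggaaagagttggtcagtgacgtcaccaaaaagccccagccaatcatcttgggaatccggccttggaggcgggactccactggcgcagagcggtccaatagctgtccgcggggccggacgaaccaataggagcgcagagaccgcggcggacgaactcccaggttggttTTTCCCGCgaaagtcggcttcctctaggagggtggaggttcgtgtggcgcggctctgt
Mcm2: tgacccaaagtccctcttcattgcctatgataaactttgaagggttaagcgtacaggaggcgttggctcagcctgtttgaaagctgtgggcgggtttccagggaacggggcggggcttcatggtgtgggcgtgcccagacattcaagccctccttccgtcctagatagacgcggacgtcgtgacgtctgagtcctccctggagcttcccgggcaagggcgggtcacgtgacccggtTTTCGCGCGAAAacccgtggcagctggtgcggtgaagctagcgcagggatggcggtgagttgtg
Mcm3: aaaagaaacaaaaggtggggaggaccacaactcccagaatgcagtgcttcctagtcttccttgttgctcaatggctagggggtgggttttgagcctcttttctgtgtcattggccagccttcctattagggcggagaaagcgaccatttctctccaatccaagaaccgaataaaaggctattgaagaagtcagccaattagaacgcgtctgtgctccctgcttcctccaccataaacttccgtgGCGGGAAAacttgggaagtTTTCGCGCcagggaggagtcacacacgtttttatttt

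The windows of Ccnb2 and Cdk1 are shown as mitotic genes, with CHR matches in capitals. The Cdk1 window also holds an E2F match and the Mcm2 window 2 CHR matches, left in lower case. Ccnb2 lies on the minus strand at chr8:79981609-79981908 and Cdk1 on the plus strand at chr20:19265043-19265342.
Ccnb2: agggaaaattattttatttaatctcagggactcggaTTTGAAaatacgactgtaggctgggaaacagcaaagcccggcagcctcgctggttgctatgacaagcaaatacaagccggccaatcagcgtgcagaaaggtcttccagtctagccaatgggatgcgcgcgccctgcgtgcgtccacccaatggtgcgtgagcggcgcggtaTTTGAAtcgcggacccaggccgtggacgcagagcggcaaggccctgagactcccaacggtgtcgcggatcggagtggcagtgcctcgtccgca
Cdk1: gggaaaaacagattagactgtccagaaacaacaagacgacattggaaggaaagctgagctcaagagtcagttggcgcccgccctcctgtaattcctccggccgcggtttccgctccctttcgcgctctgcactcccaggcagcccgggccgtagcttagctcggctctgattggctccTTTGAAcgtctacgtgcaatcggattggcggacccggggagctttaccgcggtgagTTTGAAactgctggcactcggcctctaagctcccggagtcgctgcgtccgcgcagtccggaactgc

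The DNA synthesis genes held the 1 gene with an unadjusted limma p under 0.05. Fen1, the flap endonuclease that trims Okazaki fragments, read 91.6, 122, 125, 30.6 and 74.0 in mulberry rats 1 to 5, against 95.8, 119, 146, 167 and 152 in control rats 1 to 5. Mulberry rat 4 was the lowest by a wide margin. The other mulberry rats read 74.0 to 125, against 95.8 to 167 in control rats, so the groups overlapped. The means were 88.7 ± 38.8 in mulberry rats and 136 ± 28.3 in control rats and the difference -0.62 (SE 0.28, 95% interval -1.23 to -0.01). Its unadjusted limma p was 0.0483 and its adjusted p 0.9999. In the fit without a filter the unadjusted limma p was 0.0561, the two-sided exact permutation p was 0.0714, and without mulberry rat 4 the difference was -0.35.

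Pcna, the sliding clamp that holds DNA polymerase on its template, varied little between rats. It read 1696, 2178, 1723, 2008 and 2105 in mulberry rats 1 to 5, against 1823, 1911, 2101, 2026 and 2051 in control rats 1 to 5. Both groups spanned much the same range, with means of 1942 ± 221 in mulberry rats and 1982 ± 113 in control rats, and the difference was -0.04 (SE 0.10, 95% interval -0.25 to 0.18). Rfc4, a subunit of the clamp loader, read 208, 253, 218, 287 and 219.8 in mulberry rats 1 to 5, against 192, 199.7, 201, 216 and 255 in control rats 1 to 5. Mulberry rat 4 was the highest and control rat 5 lay above 4 of the 5 mulberry rats. Its difference was 0.15 (SE 0.13), with an unadjusted limma p of 0.292. Rrm1, the large subunit of ribonucleotide reductase, differed by -0.03 (SE 0.14). Tyms, thymidylate synthase, differed by 0.02 (SE 0.29), and its control rats spread from 31.3 to 141.

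**Figure D3:**
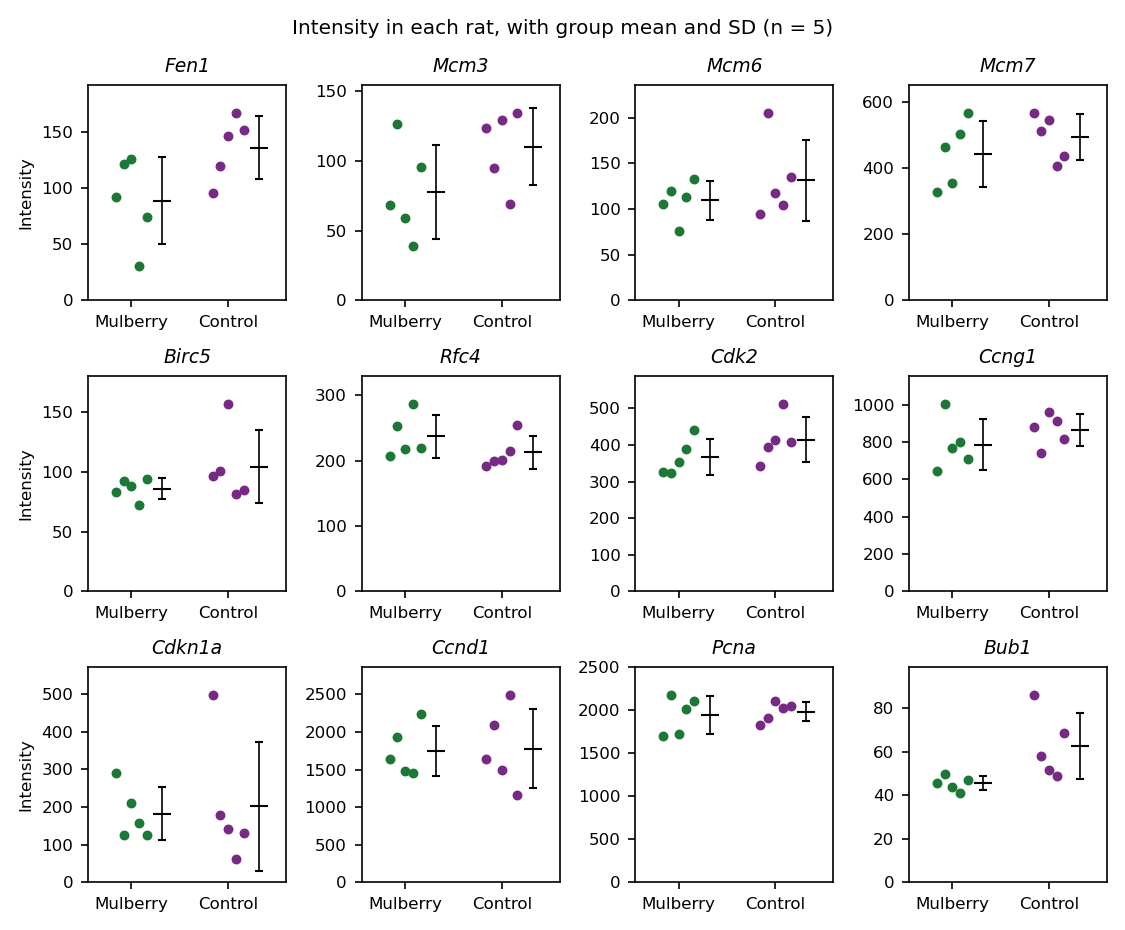
Intensity per rat (y axis, each panel with its own scale) for 12 of the genes, with mulberry rats left of control rats and the mean ± SD of each group (n = 5). The groups overlap in every panel, and single rats such as mulberry rat 4 for Fen1 and control rat 1 for Cdkn1a stand apart.

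The G1 cyclins and kinases, which take a resting cell up to S phase, had 1 higher and 5 lower mean among the 6 tested, with differences between -0.16 and 0.01, and 0 of the 6 passed the test. Ccnd1, cyclin D1, the growth factor sensor of the cycle, read 1640.4, 1938, 1478, 1455 and 2242 in mulberry rats 1 to 5, against 1647, 2096, 1488, 2496 and 1165 in control rats 1 to 5. The highest and the lowest rat were both controls, so the mulberry range lay inside the control range. The means were 1751 ± 335 in mulberry rats and 1778 ± 523 in control rats, a difference of 0.01 (SE 0.19, 95% interval -0.41 to 0.42). Its other 2 probe sets differed by -0.02 and 0.20.

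Cdk2, the kinase of cyclins E and A, read 327, 324, 354, 390.1 and 441 in mulberry rats 1 to 5, against 344, 394, 413, 513 and 408 in control rats 1 to 5. Control rat 4 was the highest and mulberry rats 1 and 2 the lowest, with overlap between 344 and 441. Its difference of -0.16 (SE 0.13, unadjusted limma p of 0.237) had the opposite sign to the 0.16 of its second probe set. Cdk4, the kinase of D cyclins, differed by -0.01 (SE 0.13). Ccnd2 and Ccnd3, the other D cyclins, differed by -0.05 and -0.14. Without mulberry rat 1 the Ccnd3 difference was -0.01. Ccnd3 varied more in mulberry rats (420 ± 117) than in control rats (449 ± 16.4; SD, n = 5 each), a difference in spread that was not tested.

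Ccne1, cyclin E1, had 1 very low rat in each group. Mulberry rat 1 read 11.3 and control rat 5 read 9.54, while the other 8 rats read 76.8 to 129. The difference was -0.12 with a wide interval, -1.19 to 0.94. E2f1, a transcription factor that drives S-phase genes, was under the filter and differed by 0.11, or by -0.09 without control rat 1.

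Of the 5 brakes and p53 targets, 2 had a higher and 3 a lower mean in the mulberry group, and 0 passed the test. Cdkn1a encodes p21, a p53 target that inhibits Cdk2, and read 291, 125, 211, 157 and 126 in mulberry rats 1 to 5, against 498, 180.2, 141, 62.1 and 130.3 in control rats 1 to 5. The highest and the lowest rat were both controls, 8.02-fold apart. Its difference of 0.08 (SE 0.40, 95% interval -0.79 to 0.96) was 0.47 without control rat 1. Ccng1, cyclin G1, another p53 target, read 646, 1006, 771, 802 and 709.9 in mulberry rats 1 to 5, against 879, 742, 963, 912 and 816 in control rats 1 to 5. Mulberry rat 2 was the highest and mulberry rat 1 the lowest, and the difference was -0.14 (SE 0.13, unadjusted limma p of 0.297).

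Rb1, which encodes the retinoblastoma protein, averaged 562 ± 25.5 in mulberry rats and 606 ± 128 in control rats, a difference of -0.08. Cdkn2c, which encodes the Cdk4 inhibitor p18, differed by -0.04, and its second probe set by 0.13. Cdkn1b, which encodes p27, the inhibitor abundant in resting cells, averaged 1777 ± 495 in mulberry rats and 1728 ± 393 in control rats, a difference of 0.03 (SE 0.20, 95% interval -0.41 to 0.46).

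Cdkn1b has a second, dim probe set that read differently. It gave 59.1, 53.4, 66.1, 76.0 and 104 in mulberry rats 1 to 5, against 48.3, 61.0, 18.2, 27.1 and 18.1 in control rats 1 to 5. Control rat 2 overlapped the mulberry range, and the difference was 0.85 (SE 0.28) with an unadjusted limma p of 0.00989 in the fit without a filter, where 2.83% of all probe sets had one under 0.05. It lay under the filter, and the bright probe set of the same gene differed by 0.03. Over the 8 genes with several probe sets, 7 of 12 further probe sets had the sign of the one used.

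Across the 10 rats of both groups, all 15 pairs of the 6 MCM genes had Pearson's r above 0, from 0.16 to 0.81 with a median of 0.43, and Spearman's rho from 0.10 to 0.88. Over all 595 pairs of the 35 genes, 328 (55.1%) had r above 0, with a median of 0.05. The 595 include the MCM pairs and pairs with the 9 genes under the filter, while all 6 MCM genes were above it. Correlating all pairs was added after the data were seen, and Mcm3 with Mcm5 was the only MCM pair fixed by role. The MCM pair with the highest r was Mcm2 with Mcm4 (r 0.81, permutation p of 0.00646, rho 0.83, permutation p of 0.00463, and r 0.78 without the 2 rats farthest from the median). No pair passed after Benjamini-Hochberg adjustment over the 595, where the smallest adjusted permutation p was 0.459 for r and 0.712 for rho. Without the 2 farthest rats, 14 of the 15 MCM pairs kept r above 0, from -0.05 to 0.87. The MCM windows with E2F matches are those of Mcm2, Mcm3, Mcm5, Mcm6 and Mcm7, and Mcm4 had no window. A link between these matches and the correlations was not tested. All pairs share the same 10 arrays, so each array's own scale enters every one of them.

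The mean of the 6 MCM genes, each centred on its own average, separated rats within both groups rather than the groups. On the log2 scale it was -0.26, 0.25, -0.34, -0.25 and 0.31 in mulberry rats 1 to 5, against -0.08, 0.27, -0.01, -0.16 and 0.28 in control rats 1 to 5. Rats 2 and 5 of each group were above 0 and the other 6 rats below. The mean of the 12 mitotic genes was 0.12, 0.20, -0.17, -0.04 and 0.08 in mulberry rats 1 to 5, against 0.26, 0.21, -0.30, -0.08 and -0.27 in control rats 1 to 5. It was above 0 in 3 of those 4 rats, with control rat 5 the exception, and below 0 in 4 of the other 6.

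**Figure D4:**
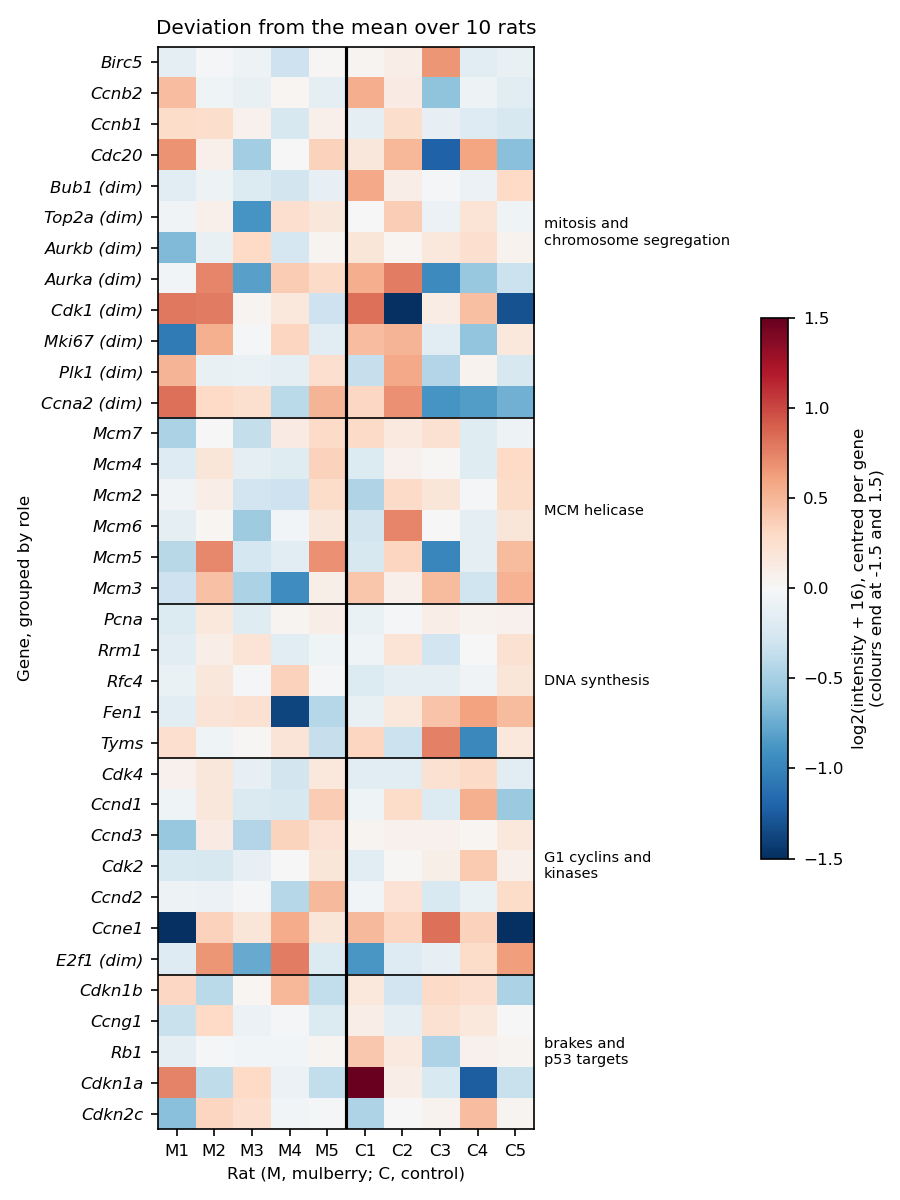
Each gene (down the page, grouped by role) in each rat (columns, mulberry rats left of control rats) as its log2 value minus the gene's mean over 10 rats, with colours ending at -1.5 and 1.5. The MCM block averages above 0 in rats 2 and 5 of both groups, and the dim mitotic genes vary from rat to rat without a split by group.

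The same 4 rats had the lowest Cdkn1b by its bright probe set, though not by its dim one. Its bright probe set read 2123, 1289, 1747, 2415 and 1314 in mulberry rats 1 to 5, against 1903, 1393, 2089, 2033 and 1225 in control rats 1 to 5. Mulberry rats 2 and 5 and control rats 2 and 5 lay between 1225 and 1393, and the other 6 rats between 1747 and 2415. By the dim probe set those 4 rats read 53.4, 104, 61.0 and 18.1 in that order. There mulberry rat 5 was the highest of all rats and control rat 5 the lowest. Mcm4 and Mcm5 enter the MCM mean that singled out those 4 rats, so high values there are partly set by that choice. Those 4 rats had the 4 highest values of Mcm4, which read 148, 198, 153, 149.5 and 223 in mulberry rats 1 to 5, against 147, 181, 175, 149.7 and 215 in control rats 1 to 5. They had the 4 highest values of Mcm5 too, which read 64.8, 161, 73.8, 79.4 and 157 in mulberry rats 1 to 5, against 75.4, 119, 38.6, 81.2 and 134 in control rats 1 to 5. The same held for Mcm6, but not for Mcm2, Mcm3, Mcm7 or Ccnd2. Mcm7 read 567 and 545 in control rats 1 and 3, above the 463 of mulberry rat 2 and the 437 of control rat 5. Mcm3 read 124 and 129 there, above the 95.4 of mulberry rat 5 and the 94.6 of control rat 2. Mcm2 read 155 in control rat 3, above the 146 of mulberry rat 2. Ccnd2 read 280 in mulberry rat 3, above the 265 of mulberry rat 2.

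This pattern was picked after the values were seen and carries no test, since Mcm4, Mcm5 and Ccnd2, cyclin D2, are the genes of the list with the lowest r to Cdkn1b in the same rats. Median array intensity was 97.5 and 109 in mulberry rats 2 and 5 and 114 and 104 in control rats 2 and 5, within the range of the other 6 rats except for mulberry rat 2. No label ties rats of the same number, and same-numbered rats did not deviate together over all tested probe sets (r -0.33 to 0.10). A correlation over all tested probe sets does not address a few genes alone, and the labels give no batches. The cause of the pattern was not tested.

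**Figure D5:**
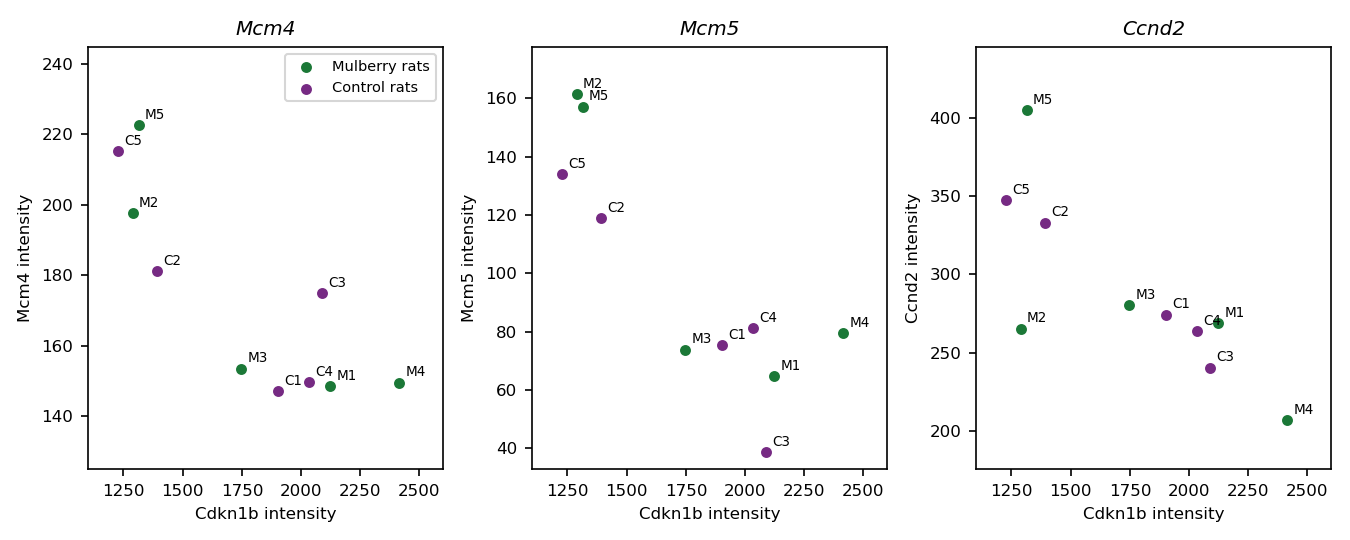
Intensity of Mcm4, Mcm5 and Ccnd2 (y axes, not starting at 0) against the bright probe set of Cdkn1b (x axis, not starting at 0), with 1 point per rat, mulberry (M1 to M5) in green and control (C1 to C5) in purple. The 4 rats at the left, rats 2 and 5 of each group, are the 4 highest for Mcm4 and for Mcm5.

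Of 5 gene pairs chosen by role, 0 passed after adjustment over the 5. Cyclin D1 and its kinase came nearest, with r 0.56 (permutation p of 0.0948, adjusted 0.474) and rho 0.60 (permutation p of 0.0754, adjusted 0.377) for Ccnd1 and Cdk4 over 10 rats. That r was 0.29 without the 2 rats farthest from the median of Ccnd1. The proliferation markers Mki67 and Top2a had r 0.15 (permutation p of 0.682) and rho 0.33 (permutation p of 0.346). Cdk1 with its activator Ccnb1 had r 0.04 (permutation p of 0.916) and rho 0.07 (permutation p of 0.865). Mcm3 with Mcm5 had r 0.23 (permutation p of 0.517) and rho 0.30 (permutation p of 0.409). The p53 targets Cdkn1a and Ccng1 had r -0.32 (permutation p of 0.378) and rho -0.45 (permutation p of 0.191). Without the 2 farthest rats, r of these 4 pairs was 0.44, 0.26, 0.13 and -0.66 in the order given.

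Wider lists of the pathway also held no call, with 0 of 97 further genes tested past the limma threshold after adjustment. Unadjusted limma p was under 0.05 in 2 of the 97, against 1.74% of all tested probe sets. The lists did not share a direction. Of 27 other replication genes tested, 15 were higher and 12 lower in the mulberry group, with a median of 0.01 (log2). Pold3, a subunit of DNA polymerase delta, averaged 895 ± 52.0 in mulberry rats and 758 ± 73.6 in control rats (difference 0.24, SE 0.10, unadjusted limma p of 0.0362). Pold1, the catalytic subunit of the same polymerase, averaged 132 ± 23.1 in mulberry rats and 99.9 ± 24.1 in control rats (difference 0.37, unadjusted limma p of 0.0691). Of 16 other mitosis genes, 10 were higher and 6 lower. Stmn1, which destabilises microtubules, averaged 903 ± 215 in mulberry rats and 1100.2 ± 281 in control rats, and Nuf2, a kinetochore protein, 101 ± 18.5 in mulberry rats and 86.3 ± 38.0 in control rats.

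Of 39 other regulators tested, 21 were higher and 18 lower. Myc, a transcription factor that promotes growth and cycling, averaged 222 ± 65.6 in mulberry rats and 434 ± 231 in control rats, a difference of -0.84 (SE 0.29, unadjusted limma p of 0.0121, adjusted 0.9999). It read 221, 284, 174, 142 and 289.5 in mulberry rats 1 to 5, against 824, 289, 458, 261 and 339 in control rats 1 to 5. Control rat 1 was the highest, and mulberry rats 2 and 5 overlapped control rats 2 and 4. Anapc10, a subunit of the anaphase-promoting complex, averaged 208 ± 47.9 in mulberry rats and 266 ± 68.8 in control rats, with an unadjusted limma p of 0.123. Of 15 p53 pathway genes, 3 were higher and 12 lower, with a median of -0.08, where 47.5% of all tested probe sets were lower. Tp53inp1, a stress-induced p53 target, averaged 153 ± 48.1 in mulberry rats and 241 ± 137 in control rats, and Ddit4, an inhibitor of mTORC1, 209 ± 54.9 in mulberry rats and 259 ± 63.8 in control rats. Control rat 1 was the highest rat for Myc, Tp53inp1 and Ddit4, as it was for Cdkn1a.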

How the data were processed

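RNA of 10 rat livers was hybridised as biotinylated cRNA, prepared, per the labels' protocols, from 2 µg total RNA each. The authors' deposited value table holds 1 intensity per probe set and array on a linear scale. The submitters' processing notes name MAS5 and affy, with no version or role. Each array's mean after trimming 2% at each end is close to 500, as a global scaling leaves it, and the table gives no detection calls.

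From the deposited intensities, log2(intensity + 16) was taken, 57 control probe sets were left out of 31099, and of the remaining 31042 probe sets whose mean did not exceed 6.27 on that scale, the 40th percentile, were dropped, leaving 18625. Groups came from the sample titles. limma 3.58.1 in R 4.3.3 (lmFit, eBayes with a variance trend) gave differences, standard errors and Benjamini-Hochberg adjusted p over all 18625, two-sided, with 0.05 as threshold. It was tested on simulated data. Genes under the filter come from the same fit without a filter. Exact tests used all 252 assignments of the rats, whose smallest p is 0.00794, and correlations used 100000 resamples, in Python 3.11.15 with scipy 1.17.1, pandas 2.3.3, numpy 2.4.6 and matplotlib 3.10.9. Probe sets were named from the platform annotation, which can be old, and 20826 carry 1 symbol. The labels do not say whether arrays or animals were processed in batches, and the number of arrays limits the precision.

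The members and lists were chosen with earlier results of these data known. The text names every member with a probe set. It gives each rat's value for the 8 tested members with the smallest unadjusted limma p and for Ccnd1, Cdk1, Top2a, Mki67, Pcna and Cdkn1a, and names 2 genes from each further list by the smallest unadjusted limma p. The values of Ccna2, Bub1, the second Cdkn1b probe set, Cdkn1b, Mcm4, Mcm5 and Myc in every rat were added after they were seen. The correlations of all 595 pairs, the MCM pairs among them, were also added after the data were seen. Same-numbered rats of the groups did not deviate together (r -0.33 to 0.10), so the numbers were not used as pairs. Alternatives were other pseudocounts, filters, scalings and weights, a block, and leaving out single rats.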

Additional observations from a re-analysis of the deposited data

Results flagged for a closer look

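Each gene's values in each group were searched for a rat whose gap to its nearest neighbour exceeded Dixon's 95% limit for 5 values (0.71 of the group's range). Of 70 groups of 5 rats, 6 held such a rat, and chance alone gives about 1 in 20. Top2a was low in mulberry rat 3 at 18.9, in a gene under the filter. Ccnb2 was high in mulberry rat 1 at 122. Ccnb1 was high in control rat 2 at 88.0, and Ccnd3 was high in control rat 5 at 477 within a narrow group. Ccne1 was low in 1 rat of each group, at 11.3 in mulberry rat 1 and at 9.54 in control rat 5.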

How the results depend on the processing

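No cell cycle gene, no gene of the further lists and no probe set passed the limma threshold under any setting tried, so every call stood. The median difference of the 35 genes lay between -0.086 and 0.0059 (log2) when single rats were left out, and between -0.063 and -0.031 under the other settings. A block by replicate number leaves every difference as it was, since each number holds 1 rat per group. The median over the 26 tested genes was thus -0.039 with and without it. The block can change only the standard errors and p, and it changed no call. With array weights the sign turned for Ccnb2 (-0.027), Mcm4 (0.0086), Ccne1 (0.057), Cdk4 (0.098), Cdkn1a (-0.060) and Cdkn2c (0.0073). With the mean over all probe sets of a gene it turned for Cdc20 (-0.062) and Cdkn2c (0.042). With arrays centred on their median it turned for Tyms (-0.0075), Ccnd1 (-0.021) and Cdkn1b (-0.00052). With a pseudocount of 64 it turned for Mcm4 (0.00071) and Tyms (-0.011). With quantile normalization it turned for Tyms (-0.021) and Cdk4 (0.0025). The correlation of Cdk1 with Ccnb1 was -0.15 with values centred within each group and -0.045 with a pseudocount of 1. Leaving out single rats moved it between -0.24 and 0.46. Signs also turned when single rats were left out for 14 of the 26 tested genes, with differences of -0.071 to 0.22 for Ccnb2, -0.042 to 0.41 for Cdc20, -0.086 to 0.074 for Mcm4, -0.078 to 0.011 for Pcna, -0.11 to 0.021 for Rrm1, -0.22 to 0.21 for Tyms, -0.13 to 0.14 for Ccnd1, -0.18 to 0.051 for Ccnd2, -0.56 to 0.26 for Ccne1, -0.051 to 0.063 for Cdk4, -0.21 to 0.47 for Cdkn1a, -0.094 to 0.13 for Cdkn1b, -0.16 to 0.11 for Cdkn2c and -0.21 to 0.0095 for Rb1. They turned too for 3 genes under the filter, with -0.32 to 0.095 for Mki67, -0.26 to 0.026 for Top2a and -0.093 to 0.31 for E2f1. Without turning, Mcm2 ran from -0.23 to -0.045, Mcm7 from -0.26 to -0.069, Cdk2 from -0.23 to -0.087 and Ccng1 from -0.23 to -0.074. Nor did Rfc4 turn, from 0.078 to 0.21, Ccnb1 from 0.13 to 0.26, Plk1 from 0.054 to 0.32 and Aurkb from -0.38 to -0.14. Ccna2 differed by 1.66 with a pseudocount of 1 and 0.21 with 64. The differences that turned are smaller than their standard errors, so their direction is not resolved at 5 rats a group. Not turning does not resolve a direction either. Mcm2, at -0.11 (SE 0.18), did not turn, and every interval except that of Fen1 crossed 0. The cause of the turns was not tested.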
